A study of Mus musculus with 4 samples.

Results

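The loci of 6 genes that mouse embryonic stem (ES) cells express, Fgf4, Tdgf1, Lin28a, Dppa3, Tet1 and Utf1, were described by their regions of acetylated histone H4 lysine 16 (H4K16ac). The members were the islands, that is the enriched regions of the deposited lists, that shared at least 1 base with a window of 30 kb on each side of a fixed mm9 position of each gene. The windows held 14 of 48278 islands in neural progenitor cells (NPC) and 23 of 40570 in undifferentiated ES cells (ESC). The rule used gene names and positions and no read count, but it was proposed with earlier results of these data known.

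Both groups came from 46c, 1 mouse ES cell line with a GFP reporter in Sox1, a gene of early neural cells. The NPC group had been differentiated for 5 days with NB27 and Neuro2 supplements and sorted for GFP, and the ESC group was undifferentiated. Each group had 1 H4K16ac chromatin immunoprecipitation library, made with the same Millipore antibody on chromatin cut with micrococcal nuclease (MNase), and 1 MNase input library that is not analysed here. Cell identity rests on the labels, since no expression was measured here. No difference between NPC and ESC has a replicate check, no p-value was computed, and intervals cover counting error only.

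H4K16ac is placed on nucleosomes mainly by the acetyltransferase MOF, and it is found at many active genes and enhancers. The 6 genes act in different layers of the ES cell state. Fgf4 and Tdgf1 carry signals between cells, Lin28a controls RNA, and Dppa3, Tet1 and Utf1 act on DNA methylation or chromatin. All 6 are known for high expression in ES cells.

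The promoters of Fgf4, Utf1 and Tdgf1 are shown as examples. Fgf4 and Utf1 had an ESC island over the position whose bases were not called in NPC, and Tdgf1, with an ESC island close to its position, has the fewest CpG of the promoters found. Each is RefSeq sequence on GRCm38.p6, from 250 bases before to 50 bases after a transcription start, with CpG dinucleotides in capitals. They are chr7:144861136-144861435 (plus strand), chr7:139943606-139943905 (plus strand) and chr9:110946109-110946408 (minus strand, printed 5′ to 3′ along the gene).
Fgf4: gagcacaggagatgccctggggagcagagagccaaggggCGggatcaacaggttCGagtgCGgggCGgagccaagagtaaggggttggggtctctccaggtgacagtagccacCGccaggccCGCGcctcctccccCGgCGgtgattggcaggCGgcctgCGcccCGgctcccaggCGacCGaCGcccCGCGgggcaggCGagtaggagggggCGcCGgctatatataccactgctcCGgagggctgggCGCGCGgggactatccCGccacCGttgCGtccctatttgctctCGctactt
Utf1: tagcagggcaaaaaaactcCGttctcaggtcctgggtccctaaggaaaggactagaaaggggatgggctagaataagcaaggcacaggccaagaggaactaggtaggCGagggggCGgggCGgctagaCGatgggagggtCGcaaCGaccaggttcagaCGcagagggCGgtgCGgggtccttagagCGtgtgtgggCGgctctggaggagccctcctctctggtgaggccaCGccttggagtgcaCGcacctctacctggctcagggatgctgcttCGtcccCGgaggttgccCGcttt
Tdgf1: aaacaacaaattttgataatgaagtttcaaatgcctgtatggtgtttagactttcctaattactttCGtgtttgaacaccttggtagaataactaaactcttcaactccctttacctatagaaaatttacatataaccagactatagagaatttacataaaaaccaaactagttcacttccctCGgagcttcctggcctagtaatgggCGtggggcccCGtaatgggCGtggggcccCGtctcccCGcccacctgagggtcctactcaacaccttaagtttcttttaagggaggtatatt

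These promoters differ in CpG content. Fgf4 had 28 CpG, more than 85.8% of the 32851 promoters of the table, Utf1 had 17 and Tdgf1 had 7, which equals the median of 7. Tet1 also had 17 and Lin28a 10, and 5 of the 6 genes were matched, without Dppa3. All 5 held a GC box (GGGCGG on either strand), with 4 matches in Utf1, 2 in Fgf4 and 1 in each of the others, against 35.7% of all promoters with a match. None held the octamer ATGCAAAT, found in 1.74% of promoters, or TATAAA, found in 13.6%. These letters are a description of the windows searched, and the islands are on mm9, so that no island was placed on these bases.

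Islands were called near all 6 genes in both cell types, but more of the sequence was covered in ESC. An island lay within 30 kb of 6 of 6 positions in NPC and 6 of 6 in ESC, against 45.7% of all 60 kb tiles of the nuclear chromosomes in NPC and 49.3% in ESC. These tiles include stretches without genes. NPC islands covered 69.2 kb of the windows (19.2%) and ESC islands 126.4 kb (35.1%). The mean tile was covered for 6.97 kb in NPC and 4.36 kb in ESC. Coverage was lower in NPC than in ESC at 5 of 6 loci and equal at Utf1, whereas ESC covered more than NPC in 45.4% of tiles with an island in either list.

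The position itself lay in an island at 0 of 6 loci in NPC and at 3 of 6 in ESC (Fgf4, Tet1 and Utf1). Islands cover 11.6% of the chromosomes in NPC and 7.27% in ESC. An ESC island also began 1 base after the Lin28a position. The positions are rounded to a kb, and more coarsely for Tet1 and Utf1, so whether an island holds a position can depend on the rounding. The nearest NPC island lay 401 bases from the Tet1 position, and the ESC island over the Utf1 position was 2.6 kb wide. No mm9 annotation was used, so an island over a position is not placed in a promoter, exon or intron.

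**Figure D1:**
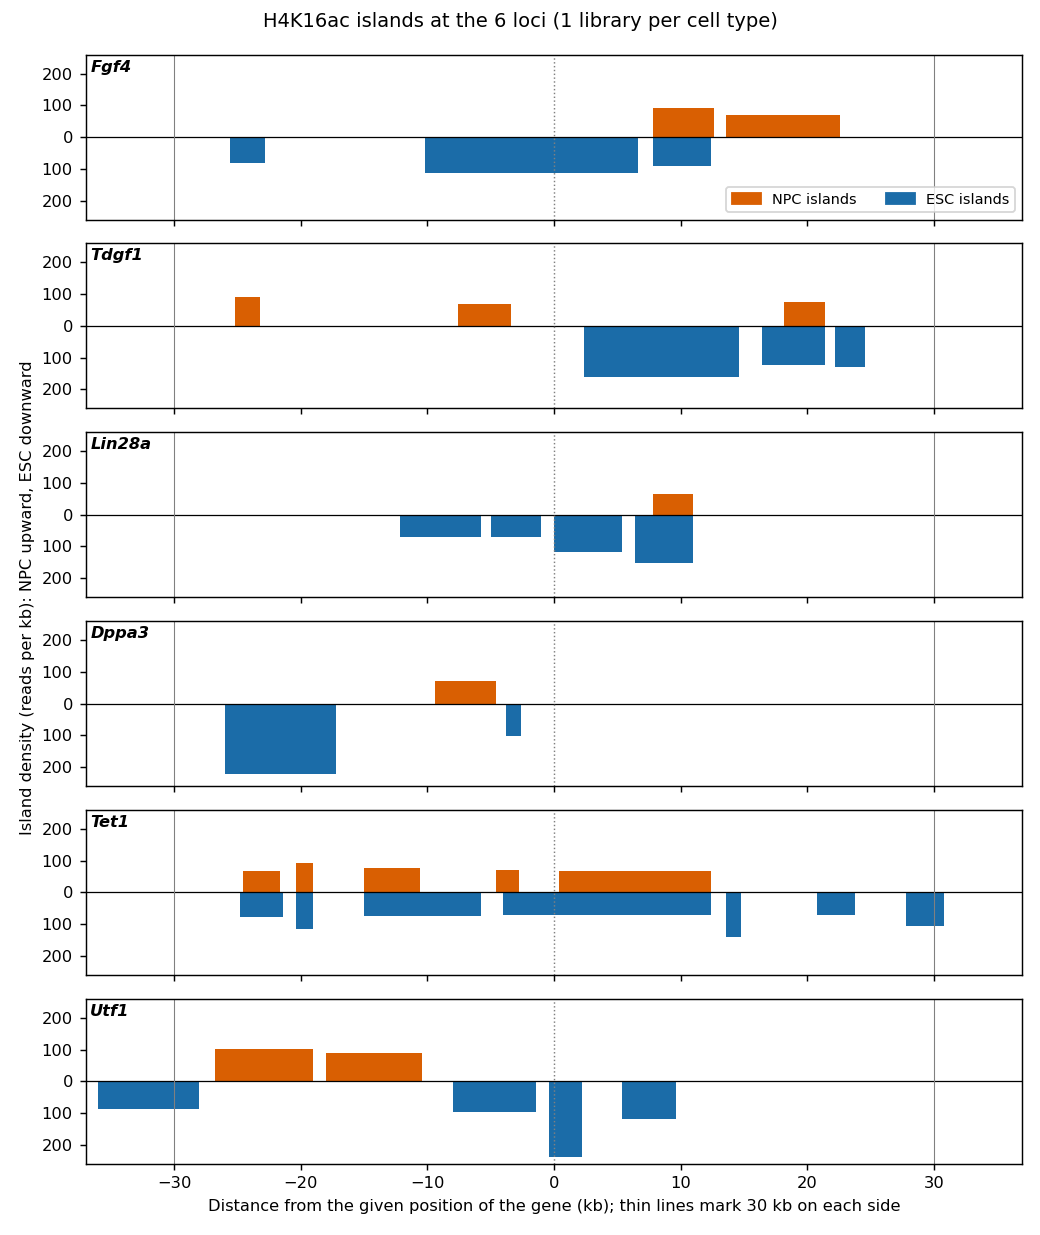
Islands at each locus by distance from the given position (horizontal axis, kb), with NPC islands drawn upward and ESC islands downward, and the height giving density in reads per kb. No NPC island crosses the dotted line at 0, whereas ESC islands cross it at Fgf4, Tet1 and Utf1.

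The reads in the islands of each window, per 1000000 island reads of the library (RPM), were lower in NPC than in ESC at all 6 loci. They were 43.5 RPM in NPC and 141 in ESC at Fgf4, and 29.2 in NPC and 161 in ESC at Tdgf1. Lin28a had 8.65 RPM in NPC and 116 in ESC, and Dppa3 had 14.1 in NPC and 115 in ESC. At Dppa3, 108 RPM of the ESC sum came from 1 island that lay 17.2 kb before the position. The other ESC island there, nearer to the position, held 6.80 RPM, less than the 14.1 RPM of the NPC island. Tet1 had 66.3 RPM in NPC and 167 in ESC, and Utf1 had 60.03 in NPC and 138 in ESC. Islands that crossed the edge of a window were counted whole. The ESC sum at Utf1 thus includes 39.6 RPM of such an island, whose NPC counterpart of 17.0 RPM lay outside the window. Lin28a and Dppa3 thus had the fewest NPC reads, while the ESC values of the 6 loci lay closer together. Among tiles with an island in either list, 56.2% had fewer RPM in NPC than in ESC. The unscaled sums over the 6 windows were 5409 reads in NPC and 15024 in ESC.

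**Figure D2:**
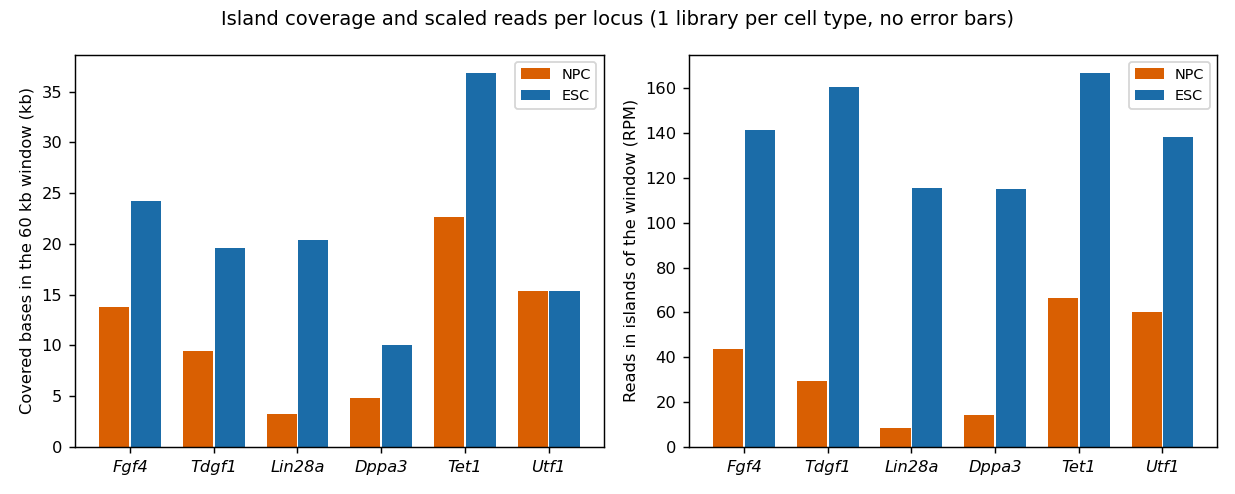
Bases covered by islands in each 60 kb window (left, kb) and reads in the islands of the window per 1000000 island reads (right, RPM), with NPC bars left of ESC bars and 1 library per bar. ESC covers more than NPC at 5 loci and as much at Utf1, where both cover 15.4 kb.

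Among the signalling genes, Fgf4 is a fibroblast growth factor that ES cells secrete and that drives them towards differentiation through ERK. In NPC its window held 2 islands on chromosome 7 (mm9), 440 reads over 4.8 kb at 152056801 to 152061600 and 622 reads over 9 kb at 152062601 to 152071600. In ESC it held 3, of which the widest covered the position, 16.8 kb at 152038801 to 152055600 with 1885 reads, or 112 reads per kb.

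That ESC island was wider than 96.2% of all ESC islands and overlapped no NPC island. NPC reads outside islands were not analysed here. The 84 NPC islands of the same width held at least 1047 reads. Beside it, ESC had 425 reads over 4.6 kb at 152056801 to 152061400, which began at the same base as the first NPC island and ended 200 bases before it. The third ESC island, 225 reads over 2.8 kb from 152023401, had no NPC counterpart. The nearest NPC island therefore lay 7.80 kb from the position. The neighbouring genes are Fgf3 and Fgf15, also fibroblast growth factors.

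Tdgf1 encodes Cripto, a membrane-anchored co-receptor for Nodal. In NPC its window on chromosome 9 held 3 small islands, 181 reads at 110818801 to 110820800, 292 reads at 110836401 to 110840600 and 240 reads at 110862201 to 110865400, at 69.5 to 90.5 reads per kb. In ESC the leading island spanned 12.2 kb at 110846401 to 110858600, starting 2.40 kb after the position, with 1963 reads, or 161 reads per kb. It was denser than 90.6% and wider than 92.8% of ESC islands and overlapped no NPC island. The 159 NPC islands of that width held at least 650 reads.

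The other ESC islands at Tdgf1 had 609 reads over 5 kb from 110860401 and 310 reads over 2.4 kb from 110866201. All 3 ESC islands lay after the position, on the side of Lrrc2, whereas 2 of the 3 NPC islands lay before it, on the side of Fam240a. Of the window, 3.2 kb was covered in both cell types, at 110862201 to 110865400.

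Lin28a, an RNA-binding protein that blocks the maturation of let-7 microRNAs, had the lowest NPC coverage of the 6 genes. Its window on chromosome 4 held 1 NPC island, 211 reads over 3.2 kb at 133572801 to 133576000, or 65.9 reads per kb. In ESC, 4 islands followed each other with short gaps over 133552801 to 133576000. They held 457 reads over 6.4 kb, 283 over 4 kb, 632 over 5.4 kb and 702 over 4.6 kb, in order of position.

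Density along this ESC chain was 71.4, 70.8, 117 and 153 reads per kb, so that it was highest in the last island, the only one with an NPC counterpart. Coverage of the Lin28a window was 3.2 kb in NPC and 20.4 kb in ESC, a difference of -17.2 kb. Of all 60 kb tiles, 0.974% had a lower value of NPC minus ESC.

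Dppa3, also called Stella, protects DNA methylation in the early embryo and marks germ cells and naive ES cells. In NPC its window on chromosome 6 held 1 island, 343 reads over 4.8 kb at 122568601 to 122573400. In ESC the larger island lay at 122552001 to 122560800, 17.2 kb before the position and on the side of the neighbouring gene Gdf3, a TGF-beta family ligand of ES cells. It held 1942 reads over 8.8 kb, or 221 reads per kb, denser than 99.4% of ESC islands. The 357 NPC islands of that width held at least 501 reads. The other ESC island, 122 reads over 1.2 kb from 122574201, was the nearest to the position at 2.6 kb. No base of the Dppa3 window was covered in both cell types.

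Tet1 oxidises 5-methylcytosine, the first step of active DNA demethylation, and it was the locus where the cell types were most alike in position. Its window on chromosome 10 held 5 NPC islands with 1616 reads and 7 ESC islands with 2990 reads. Of the 22.6 kb covered in NPC, 97.3% was also covered in ESC, and of the 36.8 kb covered in ESC, 59.8% was covered in NPC. The ESC coverage was higher than in 98.1% of tiles.

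The main ESC island at Tet1, 62296001 to 62312400, held 1174 reads over 16.4 kb. It met 2 NPC islands, 127 reads at 62295401 to 62297200 and 816 reads at 62300401 to 62312400, and the position fell in the NPC gap, 401 bases from the longer of these. An ESC island of 1.4 kb from 62279601 had the same ends in NPC, with 130 reads in NPC and 161 in ESC. The 3 ESC islands farthest after the position, from 62313601, 62320801 and 62327801, had no NPC counterpart and 170, 213 and 316 reads. Tet1 is longer than the window in RefSeq, so the window cannot hold the whole gene, and the likeness in position is that of the window only.

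Utf1 encodes a chromatin-associated factor found mainly in undifferentiated cells. Its window on chromosome 7 was covered for 15.4 kb in NPC and 15.4 kb in ESC, but 0 bases were shared. The NPC islands, 792 reads at 147103201 to 147111000 and 672 reads at 147112001 to 147119600, both lay before the position, on the side of the neighbouring gene Kndc1, and the nearer ended 10.4 kb from it.

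In ESC a narrow island covered the Utf1 position, 2.6 kb at 147129601 to 147132200 with 623 reads. At 240 reads per kb it was the densest of the 23 ESC islands at these loci and denser than 99.7% of all ESC islands. The 1610 NPC islands of that width held at least 135 reads. It was flanked by islands of 643 reads over 6.6 kb from 147122001 and 502 reads over 4.2 kb from 147135401, neither called in NPC. A further ESC island, 711 reads over 8 kb from 147094001, crossed the edge of the window.

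Summed over the loci, ESC coverage was concentrated next to the positions, and NPC coverage was not. Within 10 kb, in a split by distance chosen after seeing the data, NPC islands covered 20.7% of the bases and ESC islands 63.7%. From 10 to 20 kb the shares were 23.5% in NPC and 22% in ESC, and from 20 to 30 kb 13.5% in NPC and 19.7% in ESC. From 50 to 100 kb the order was the other way round, with 33% in NPC and 19.1% in ESC.

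By locus, ESC coverage was concentrated at 4 of the 6 loci. Within 10 kb of the position, Fgf4 was covered for 11% in NPC and 94% in ESC, Lin28a for 11% in NPC and 86% in ESC, and Utf1 for 0% in NPC and 67% in ESC. Tet1 had 57% in NPC and 91% in ESC, and Tdgf1 21% in NPC and 38% in ESC. Dppa3 had 24% in NPC and 6% in ESC. From 10 to 20 kb, ESC covered 41% at Tdgf1 and 14% at Dppa3, so that at these loci the ESC share was no higher next to the position. NPC coverage from 10 to 20 kb was lower than within 10 kb at Tdgf1 (9%), Lin28a (5%), Dppa3 (0%) and Tet1 (39%). It was higher at Fgf4 (45%) and Utf1 (43%), so the flat NPC sum does not hold for each locus.

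**Figure D3:**
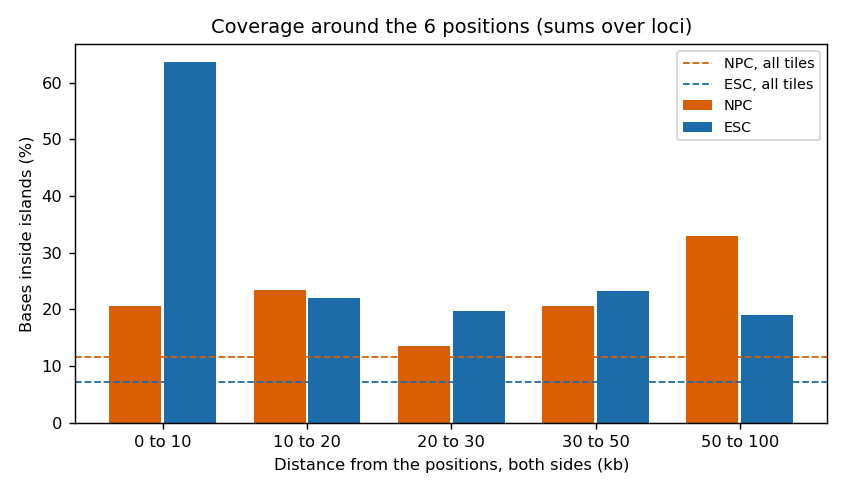
Share of bases inside islands by distance from the 6 positions (kb, both sides, summed over loci), with NPC bars left of ESC bars and dashed lines for the mean of all 60 kb tiles. The ESC share is 63.7% within 10 kb and 19.1% to 23.2% farther out, whereas the NPC share is highest from 50 to 100 kb.

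ESC islands at these loci were denser than NPC islands, and the densest of them had no NPC counterpart. Density ranged from 65.9 to 102 reads per kb in the 14 NPC islands (median 73.2) and from 70.8 to 240 in the 23 ESC islands (median 105), or medians of 3.003 RPM per kb in NPC and 5.87 in ESC. The lists as a whole had medians of 76.6 in NPC and 93.3 in ESC, and 5 of 14 NPC islands and 14 of 23 ESC islands lay above the median of their list. Median width was 4.3 kb in NPC and 4.6 kb in ESC, against list medians of 4.2 kb in NPC and 3 kb in ESC.

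Of the 14 NPC islands, 8 (57.1%) overlapped an ESC island, against 34.7% of all NPC islands. Without Tet1 this was 3 of 9, or 33.3%. Of the 23 ESC islands, 8 (34.8%) overlapped an NPC island, against 39.8% of all ESC islands. Without Tet1 this was 4 of 16, or 25%. Islands of a locus are neighbours and Tet1 holds 5 of the 8 NPC and 4 of the 8 ESC islands with a counterpart, so no interval is given for these shares. At the loci, the ESC islands without an NPC counterpart had a median of 112 reads per kb, and those with one a median of 90.6. No value over all ESC islands is given for this contrast, so it is not shown to be particular to these loci.

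**Figure D4:**
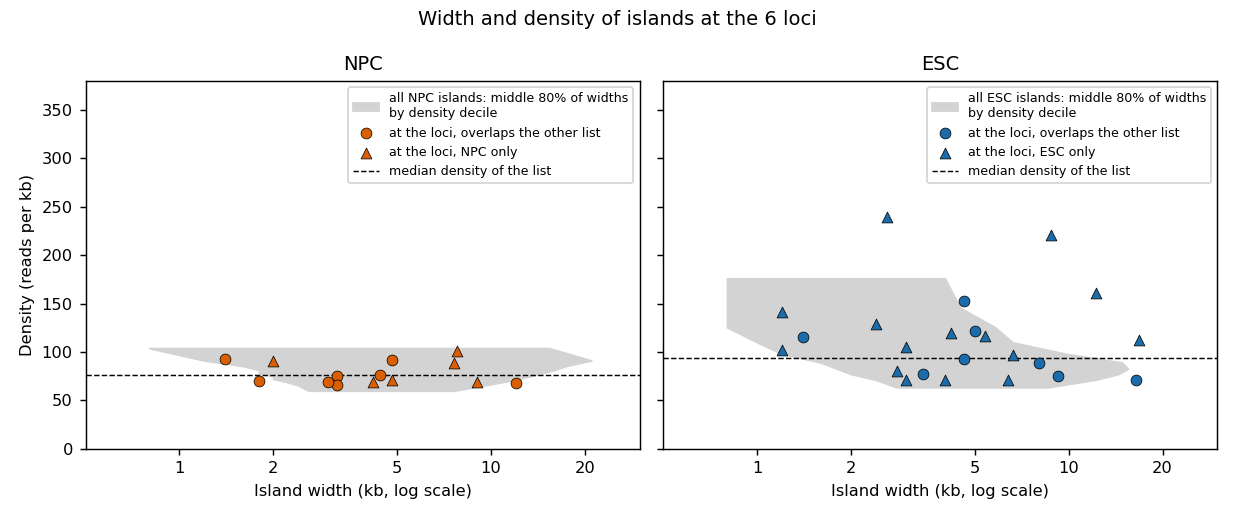
Width (kb, log scale) against density (reads per kb) of the islands at the loci, NPC left and ESC right, with circles for islands that overlap the other list, triangles for those that do not, and a grey band for the middle 80% of widths of the whole list by density decile. The ESC islands above 200 reads per kb at Utf1 and Dppa3 are triangles, and no NPC island exceeds 102 reads per kb.

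Where a stretch was called in both cell types, NPC had fewer RPM than ESC. Merging islands of both lists gave 29 regions at the loci, 6 called in NPC only, 15 in ESC only and 8 in both. These are 20.7%, 51.7% and 27.6% of the regions, against 44.8% called in NPC only, 34.7% in ESC only and 20.6% in both over all 70434 regions. Tet1 alone holds 4 of the 8 regions called in both, as neighbours, and Fgf4, Tdgf1, Lin28a and Utf1 hold 1 each. The share called in both is therefore not read as a trait of the 6 loci. For the 8, log2 NPC over ESC of the RPM was below 0 in 8 of 8, against 77.9% of all shared regions, and at or below -1, a 2-fold difference, in 4 of 8, against 28.1%. Scaling to island reads lowers each log2 by 0.44, also over all shared regions, and in raw reads the Fgf4 region was above 0. The median of the 8 was -1.01 with an SD of 0.61 across regions, beside a median of -0.49 and an SD of 1.07 over all 14478 shared regions. With the reads of the 8 regions summed, NPC had 2922 over 38 kb and ESC 4738 over 52.6 kb, a log2 of -1.14 (-1.21 to -1.07). With gaps of up to 2000 bp merged, the 8 regions became 6, of which 5 were below 0. That merge also formed a further shared region at Dppa3, where NPC was higher. It joined the NPC island of 343 reads (14.1 RPM) and the ESC island of 122 reads (6.80 RPM).

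The order of the regions depends on how islands are merged. From 1 shared base, Lin28a had the lowest value. Its region from 133571401 held 211 reads in NPC and 702 in ESC, a log2 of -2.18 (-2.41 to -1.95), and 8.43% of shared regions lay lower. Tdgf1 came next, with 240 reads in NPC and 609 in ESC and a log2 of -1.79 (-2.01 to -1.57). With gaps merged, Tdgf1 was lowest at -4.03 and Lin28a had -3.74. Fgf4 was nearest to 0, with 440 reads in NPC and 425 in ESC and a log2 of -0.39 (-0.59 to -0.20). Its sign depends on the scaling, since the log2 was 0.050 in raw reads, and with gaps merged its value was -1.56.

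The 4 Tet1 regions had log2 values of -0.79, -0.75, -1.49 and -0.76 in order of position. In the third of these, NPC was called over 4.4 kb and ESC over 9.2 kb. The Utf1 region, at the edge of the window, had 415 reads in NPC and 711 in ESC and a log2 of -1.22 (-1.40 to -1.04), and its NPC island lay just outside the window. With gaps merged the direction turned, to 0.63 (0.51 to 0.74). Reads outside called islands are missing from all of these ratios.

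Part of these differences lay in the called width. By density, in RPM per kb, log2 NPC over ESC ran from -1.65 at Lin28a and -1.14 at Tdgf1 to -0.29 at Utf1, and the median of the 8 was -0.56. All shared regions had a median of -0.51, with 98.3% below 0, so a density below 0 in 8 of 8 regions does not set these loci apart. Density not scaled to island reads was below 0 in 6 of 8, against 60.6% of all. The Lin28a value on that scale was -1.21, and 2.55% of shared regions had a lower scaled density log2. With gaps merged, the scaled density log2 was -1.41 at Tdgf1 and -1.07 at Lin28a.

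**Figure D5:**
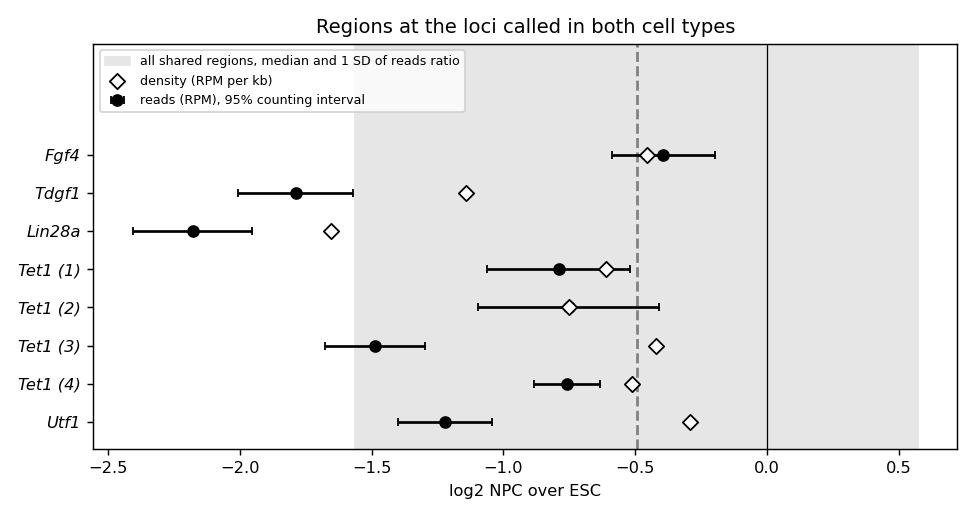
log2 NPC over ESC of the 8 regions called in both cell types, with filled circles for reads (RPM) and their 95% counting interval, diamonds for density (RPM per kb), and a grey band for the median and 1 SD of all shared regions. Lin28a and Tdgf1 lie lowest on both measures with islands merged from 1 shared base, and the Tet1 regions are numbered by position.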

How the data were processed

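H4K16ac and MNase input libraries of 46c NPC and ESC were sequenced. The submitters' processing notes name the build mm9 and the tools SICER 1.1, bedtools 2.10.1, Bowtie 0.12.7, CASAVA 1.8.2 and SAMtools 0.1.7. The authors deposited 1 island list per cell type, whose whole number per island was read as a count of H4K16ac reads, not scaled to depth or input. Per the list names, the false discovery rate was 0.01, with windows of 200 bp and gaps of 600 bp. Duplicate removal and the use of the input are not given in the sources used here. Island reads came to 24386370 in NPC and 17935144 in ESC, and total depth is unknown. The median island held 313 reads in NPC and 277 in ESC, for which counting error is 5.65% in NPC and 6.01% in ESC.

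Coordinates count from 1. A window of 60 kb was centred on each given position, and all 6 genes were named with every island in it. RPM are reads per 1000000 island reads. Regions are islands of both lists merged from 1 shared base, and ratios have exact Clopper-Pearson 95% intervals. The 1 ESC mitochondrial island was left out of all but the totals. Tiles of 60 kb ran to the last island of each chromosome. Other windows, island filters, scalings and merges were tried as alternatives. Merging, windows and intervals were tested on simulated data. Genes of the same roles without a given mm9 position were not analysed, since no mm9 annotation was used. The genes, positions and measures were chosen with earlier results of these data known. Sequences and neighbour names came from RefSeq on GRCm38.p6, and no coordinates were converted. Python 3.11.15, numpy 2.4.6, pandas 2.3.3, scipy 1.17.1 and matplotlib 3.10.9 were used.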

Additional observations from a re-analysis of the deposited data

How the results depend on the processing

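No paired analysis was possible because each group had 1 library, and none could be left out. Of 50 summary values recomputed, 34 kept within their limit (1.5 times for counts and coverage, the counting interval for ratios) and 16 left it, and of 63 values of single regions 14 stayed, 42 moved and 7 changed sign. No cause of these shifts was tested. An island lay within 5 kb of 3 positions in NPC and 6 in ESC. Within 10 kb, ESC coverage was 63.7%. The summed log2 of reads was -0.73 scaled by shared regions, -0.65 by the median ratio, -0.70 in raw reads and -1.45 with gaps of 2000 bp merged. Settings that left out a gene, chosen after seeing the data, gave -1.24 without Fgf4, -1.07 without Tdgf1, -1.02 without Lin28a and -1.35 without Tet1. The summed log2 of density was -0.23 without scaling, -0.26 scaled by shared regions, -0.82 with gaps merged, -0.55 without Lin28a and -0.82 without Tet1. The sums of reads and of density with gaps merged include the Dppa3 region that only this merge formed. The Fgf4 region changed sign to 0.019 scaled by shared regions, 0.10 by the median ratio and 0.050 in raw reads. The Utf1 region changed to 0.63 with gaps merged, and its density to 0.15 without scaling and 0.12 scaled by shared regions. The density of the third Tet1 region changed to 0.022 without scaling. Taking reads in proportion to the bases inside the window gave no value for the Utf1 region, whose NPC island lies outside it.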

Other observations

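Several islands beyond the 30 kb windows were as large as those inside, and were picked after their values were seen. At Tet1, whose gene exceeds its window, ESC had 779 reads over 4.8 kb from 62346401 and 1554 reads over 11 kb from 62352201, at 162 and 141 reads per kb, against 71.0 to 142 for the ESC islands inside the window. Neither overlapped an NPC island. On the other side an ESC island of 679 reads from 62253801, at 189 reads per kb, met an NPC island of 224 reads from 62254201. At Dppa3, on the side of Nanog, ESC had 790 reads over 4.2 kb from 122610801, 32.8 kb from the position, at 188 reads per kb and with no NPC counterpart.

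From 30 to 70 kb, the 19 NPC islands were 2.4 to 27 kb wide (median 5.6 kb) and the 21 ESC islands 1.8 to 11.4 kb (median 4.2 kb). The widest NPC islands are named here. At Utf1 an NPC island of 27 kb from 147167201 held 2427 reads, wider than 98.2% of NPC islands, with no ESC counterpart. At Lin28a an NPC island of 21 kb from 133606401 held 1566 reads and met an ESC island of 5.6 kb with 550 reads. At Tdgf1 an NPC island of 18.8 kb from 110786201 held 1722 reads and met an ESC island of 11.4 kb with 1006 reads. Nearest to the rule's limit, the ESC island from 147160001 at Utf1 fell 1 base outside with 269 reads, and the ESC island from 147094001 at Utf1 fell inside at 28 kb with 711 reads.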
